A study of Mus musculus with 4 samples.

Results

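RBPJ binding was mapped at 8 genes of cholesterol transport and synthesis in WT mouse alveolar macrophages (AMs), which reside in the air spaces of the lung. The genes were Abca1, Abcg1, Apoe, Soat1, Srebf1, Srebf2, Insig1 and Mylip, listed by symbol among 21755 protein-coding genes of the mouse annotation. A peak was assigned to a gene when it overlapped the gene body, lay within 1 kb of one of its transcription start sites (TSSs), or had that gene's TSS as the nearest protein-coding one. Intervals of overlapping peaks that held at least 1 peak of each library are called consensus regions, and each is numbered as a site along the chromosome. The 8 genes held 66 of the 25454 consensus regions, 193 of the 106228 peaks of replicate 1 and 117 of the 47224 peaks of replicate 2.

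The AMs came from WT C57BL/6J mice, 9 wk of age according to the methods of the study, by bronchoalveolar lavage and cell sorting. HT-ChIPmentation, which tags immunoprecipitated chromatin with sequencing adapters while it is on the beads, was run with an Abcam antibody against RBPJ in 2 libraries (replicates 1 and 2), beside 2 Input libraries made without antibody. Input served in the authors' peak calling, and no values of the Input libraries were analysed here. All samples shared 1 genotype and no treatment is labelled, so no comparison between conditions was possible. The labels do not say whether the libraries came from separate animals, and differences between them may be technical.

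AMs take up and break down the lipids of pulmonary surfactant, and a failure to export cholesterol leaves them filled with lipid droplets. Free cholesterol leaves a macrophage through the ABC transporters or is stored as ester, while synthesis and uptake are switched on by the SREBP factors when membrane sterol is low. Oxysterols act in the opposite sense through the liver X receptors (LXRs), nuclear receptors that pair with RXR and bind AGGTCA repeats. RBPJ is the DNA-binding factor of the Notch pathway and recognises the sequence TGGGAA.

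The peak lists differed in length, and fold enrichment, the peak caller's ratio of signal at the summit over background, is given for each library. Across all consensus regions the strongest peak had a median fold of 6.34 in replicate 1 and 5.02 in replicate 2, and Spearman's rho between the libraries was 0.55 (n = 25454 regions, a description only, since the regions come from the same libraries). Of the AM markers looked up, 10 of 12 had a consensus region within 1 kb of a TSS, all but Marco and Krt79. The same held for 0 of 5 type II pneumocyte, 1 of 5 endothelial (Pecam1), 0 of 5 T and B lymphocyte and 1 of 5 neutrophil (S100a8) markers. Over all protein-coding genes the share was 33.7%. By any of the 3 assignment rules, 12 of 12 AM and 0 of 5 type II pneumocyte markers had a region. So did 3 of 5 endothelial, 1 of 5 lymphocyte and 1 of 5 neutrophil markers, against 45.0% of all genes. Sequencing depth was unknown here, since the lists hold no read numbers.

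Of the 8 genes, 7 had a consensus region within 1 kb of a TSS (87.5%), against 33.7% of all protein-coding genes, and Apoe was the gene without one. The same 7 genes had a region in the gene body, against 37.3% of all genes, and a region by any of the 3 assignment rules, against 45.0%. The 8 genes were longer, with a median body of 36.65 kb against 17.4 kb over all genes, and the shares were not matched for length. In the single lists, all 8 genes had a replicate 1 peak within 1 kb of a TSS, against 46.1% of all genes. A replicate 2 peak lay there in 7 of the 8 genes, against 37.5%. All these shares are descriptions, and no set of genes active in AMs was used as a background. In replicate 1, 76 of the 193 peaks of the 8 genes (39.4%) lay in a consensus region, against 26.0% of all its peaks. In replicate 2 it was 100 of 117 peaks (85.5%), against 66.3%. Abcg1 alone gave 45 of the 76 and 65 of the 100. Its replicate 1 share was 54.9%, while the other genes ranged from 0% (Apoe) to 40.0% (Mylip), with Abca1 at 28.0%, Soat1 at 23.8% and Insig1 at 21.4%.

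The 66 regions were mostly intronic. The summit of the stronger library lay in an intron at 52 regions, in an exon at 4, upstream of the gene at 9 and downstream at 1, and 15 regions came within 1 kb of a TSS. Median width was 738.5 bp, with a range of 167 to 6645 bp, against a median of 593 bp over all consensus regions. Replicate 1 gave the higher fold at 49 regions (74.2%) and replicate 2 at 17, and replicate 1 was the higher at 72.2% of all consensus regions. The median fold was 6.09 (range 2.50 to 18.3) in replicate 1 and 4.72 (range 2.77 to 11.05) in replicate 2, both below the medians of all consensus regions given above. Summits of the strongest peaks of the libraries were a median of 128.5 bp apart, against 94 bp over all regions. At 30 of the 66 regions (45.5%) both libraries reached a −log10 q of at least 5, against 51.2% of all.

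**Figure D1:**
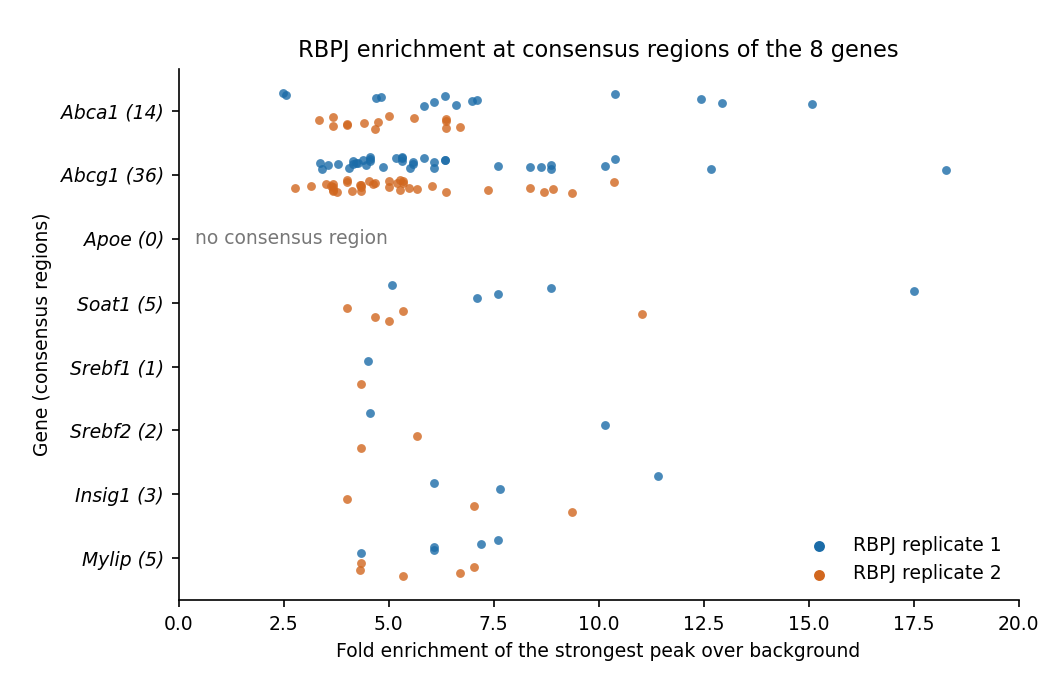
Fold enrichment of the strongest RBPJ peak (x axis, ratio over background) at each consensus region of the 8 genes (y axis, with the number of regions), in replicate 1 (blue) and replicate 2 (orange). Points reach 18.3 at Abcg1 and 17.5 at Soat1 in replicate 1, most lie between 3 and 8, and Apoe has none.

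Sequence around the summits is shown for 8 sites that lay clear of exons, to let the letters under the peaks be read. Each was among the stronger of its gene in at least 1 library. Srebf2 site 1 was weaker in replicate 2 (10.1 and 4.35), and other strong sites, such as Abcg1 sites 12 and 15, are not shown. Each window holds 101 bases of the plus strand of GRCm38 (NCBI RefSeq), centered on the summit of the stronger library, and capitals mark motif matches.
Abca1 site 3, chr4:53120454-53120554: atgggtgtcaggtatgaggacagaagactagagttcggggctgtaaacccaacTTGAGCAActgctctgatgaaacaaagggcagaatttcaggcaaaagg
Abcg1 site 1, chr17:31039789-31039889: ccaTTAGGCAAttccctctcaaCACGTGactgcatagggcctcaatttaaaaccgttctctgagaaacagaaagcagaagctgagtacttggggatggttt
Abcg1 site 4, chr17:31058758-31058858: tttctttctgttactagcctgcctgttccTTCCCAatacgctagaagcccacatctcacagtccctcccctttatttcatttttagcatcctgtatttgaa
Abcg1 site 31, chr17:31110431-31110531: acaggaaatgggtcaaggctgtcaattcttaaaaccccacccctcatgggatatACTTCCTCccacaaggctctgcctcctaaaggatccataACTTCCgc
Soat1 site 3, chr1:156471630-156471730: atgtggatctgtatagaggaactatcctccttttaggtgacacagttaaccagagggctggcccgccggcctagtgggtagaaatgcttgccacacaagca
Srebf2 site 1, chr15:82147040-82147140: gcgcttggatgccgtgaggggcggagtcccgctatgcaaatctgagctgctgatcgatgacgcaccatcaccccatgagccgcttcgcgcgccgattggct
Mylip site 4, chr13:45392250-45392350: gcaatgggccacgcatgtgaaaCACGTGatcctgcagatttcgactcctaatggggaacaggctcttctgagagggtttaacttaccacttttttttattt
Insig1 site 1, chr5:28037781-28037881: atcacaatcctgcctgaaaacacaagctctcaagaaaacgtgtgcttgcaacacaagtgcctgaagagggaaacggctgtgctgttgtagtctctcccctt
The capitals mark a CEBP match (TTGCNNAA) at Abca1 site 3 and Abcg1 site 1, an E-box (CACGTG) at Abcg1 site 1 and Mylip site 4, the RBPJ core TGGGAA on the minus strand at Abcg1 site 4, and PU.1 and ETS matches (GAGGAAGT and GGAAGT, minus strand) at Abcg1 site 31. The windows of Soat1 site 3, Srebf2 site 1 and Insig1 site 1 held none of the motifs searched. At Insig1 site 1, GTGGGAA, which contains the RBPJ core, lay outside the printed window at −71 bp from the summit.

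Abcg1, a transporter that moves cholesterol toward high-density lipoprotein and whose loss fills mouse AMs with lipid, held 36 of the 66 regions. It had 82 peaks in replicate 1 and 70 in replicate 2, of which 45 (54.9%) and 65 (92.9%) lay in consensus regions. The gene spans chr17:31057675-31117988 on the plus strand (60.3 kb), and 34 of its regions overlapped the body. Together they covered 43.6 kb, or 72.4% of the gene. The peaks of replicate 1 alone covered 74.2% of the body and those of replicate 2 covered 42.8%.

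Few genes held as many regions, and those that did were longer. Among all 21755 genes, 62.7% had no consensus region in the body and 43 genes had 20 or more. Abcg1 ranked 5th by regions in the body, after Gm20388 (147 regions in 4435 kb), Tcf7l2 (39 in 192 kb), Fgfr2 (37 in 2961 kb) and Akap13 (35 in 299 kb). Among the 4209 genes at least as long as Abcg1, it ranked first both by covered share (72.4%, the next gene 60.3%) and by regions per 10 kb (5.64, the next gene 3.53). Over genes of every length it ranked 102nd by covered share.

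**Figure D2:**
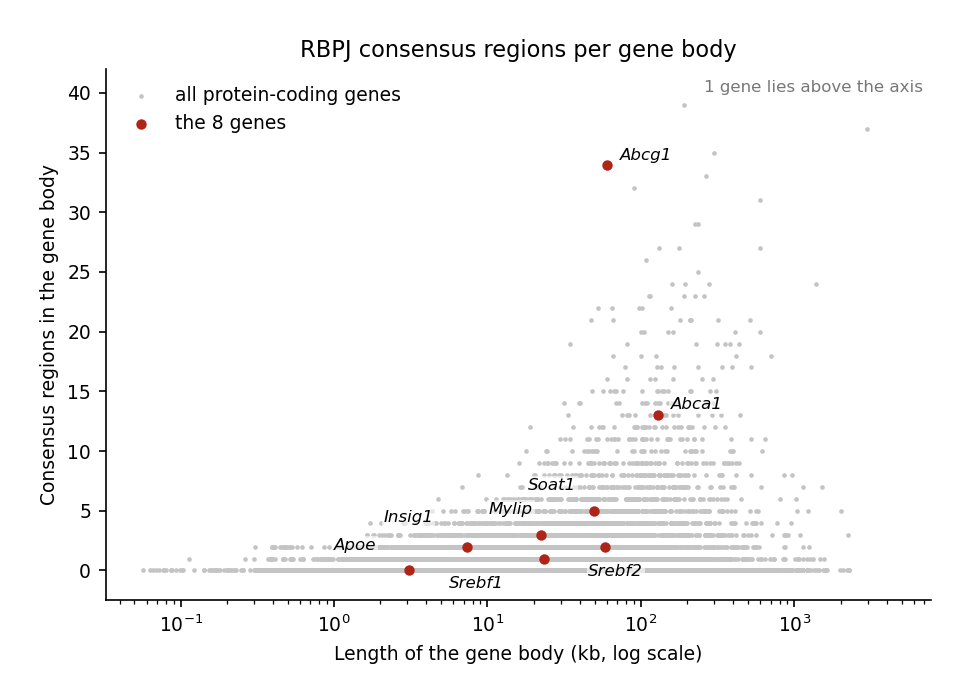
Number of RBPJ consensus regions in the gene body (y axis) against the length of the gene body (x axis, kb, log scale) for all protein-coding genes (grey) and the 8 genes (red); 1 gene, Gm20388 with 147 regions, lies above the axis. Abcg1 stands at 34 regions in 60.3 kb and Abca1 at 13 in 129 kb, while Apoe is at 0.

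The Abcg1 sites fell into an upstream group, a start group and a long intronic series. Site 1 (chr17:31037500-31041985, 4486 bp wide) lay upstream of the gene at −17.8 kb from the TSS, where replicate 1 reached a fold of 18.3 and replicate 2 one of 9.37. It had the highest replicate 1 fold of the 66 regions and lay in the top percentiles of each list (99.8 and 97.2). Site 2, beside it at −15.5 kb, was weak in both libraries (3.41 and 3.78).

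At the start of Abcg1, site 3 (chr17:31057001-31058232) covered the TSSs, with a summit at +169 bp and folds of 8.88 and 6.36 in replicates 1 and 2. Site 4 (chr17:31058334-31061402) followed in intron 1, with folds of 12.7 and 8.70. Both libraries were strong there, but the summits of their strongest peaks were 1900 bp apart, the widest such gap among the 66 regions. Replicate 2 also had a weaker peak in this site (fold 6.36) with its summit at +983 bp, close to the replicate 1 summit at +1081 bp. Site 4 also covered the start of Gm25447, an annotated rRNA gene within Abcg1.

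Introns 1 and 2, which make up 56.7% of the gene body, held 16 summits. Intron 1 (6.53 kb) had 4 and was 91.1% covered, and intron 2 (27.7 kb) had 12 and was 88.7% covered. The widest region of all, site 12 (chr17:31072462-31079106, 6645 bp), lay in intron 2 and merged 3 peaks of replicate 1 with 7 of replicate 2, with folds of 10.1 and 8.91. Site 15, also in intron 2, had 8.88 and 8.37. Site 8 had 8.63 and 7.36. Site 10 in the same intron was high in replicate 1 only, with 8.37 against 3.68 in replicate 2.

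Coverage thinned in the middle of the gene and returned near its end. Introns 3, 4 and 5 were 41.1%, 29.0% and 42.4% covered by consensus regions, with folds between 3.17 and 6.09 in both libraries. Introns 6 and 7 held no summit and no base of a consensus region. Unshared peaks lay there, in intron 6 with folds of 3.55 (replicate 1) and 4.69 (replicate 2), and across intron 7 with 5.07 (replicate 1). Site 31 (chr17:31109510-31111315), in intron 11 at +52.8 kb, broke this pattern with 10.4 in each library. Its summits lay 3 bp apart and its −log10 q was 27.9 in replicate 1 and 21.1 in replicate 2. The last exon, which ends the transcript, held the summits of sites 34 to 36 (folds 4.57 to 5.84 in replicate 1 and 4.02 to 5.36 in replicate 2) and was 74.1% covered.

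Across the 36 sites of Abcg1 the folds of the libraries ranked alike (Spearman's rho 0.64, n = 36 neighbouring sites of the same libraries, a description only). Both folds were at least 8 at 5 sites and under 5 at 11, and replicate 2 was higher at 8. At 17 sites both libraries reached a −log10 q of at least 5. Gaps between neighbouring regions of the body were short, with a median of 190 bp (range 22 to 3145 bp), and 30 of 33 were under 1 kb. The count of sites therefore turned on where a gap was drawn: joining regions under 500 bp apart left 12 blocks, the longest 23.5 kb from the start of the gene into intron 2 (11 sites).

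**Figure D3:**
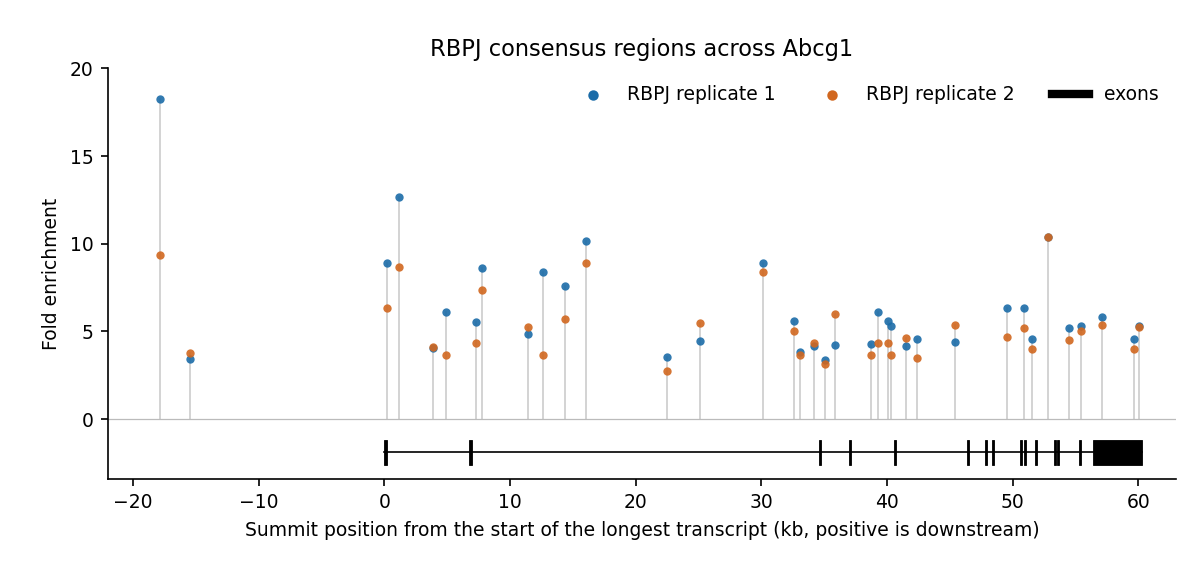
Fold enrichment (y axis, ratio over background) at the 36 Abcg1 sites in replicate 1 (blue) and replicate 2 (orange), placed by summit distance from the start of the longest transcript (x axis, kb), with exons as black boxes below. Sites cover most of introns 1 and 2 and a smaller share of introns 3 to 5, though they stay numerous there. Folds reach 18.3 and 9.37 upstream and 10.4 in each library near 53 kb.

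Annotation by nearest TSS alone would have given Abcg1 20 of these 36 regions. The other 16, all in the 3′ part of the gene and site 31 among them, had the TSS of Tff3, a trefoil factor gene, as the nearest protein-coding start. That TSS lay 11658 bp beyond the end of Abcg1. After joining regions under 500 bp apart, the last block (chr17:31114725-31128838, 14.1 kb) ran on past the end of Abcg1 toward it. Only 2 of the 36 regions lay within 1 kb of an Abcg1 TSS.

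Abca1, the transporter that loads cholesterol and phospholipid onto lipid-poor apolipoprotein A-I, held 14 regions, 13 of them in its body (chr4:53030787-53159895, minus strand, 129 kb). They covered 9.09% of the gene. Replicate 1 had 50 peaks at Abca1, 14 of them (28.0%) in consensus regions, and replicate 2 had 20, of which 15 (75.0%) lay in consensus regions. Both libraries reached a −log10 q of at least 5 at 4 of the 14 regions. All 13 body regions lay in or before intron 6, and none in the introns beyond it.

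Intron 5 of Abca1 held 6 summits. Sites 3 to 7 formed a cluster between +32.8 and +39.4 kb, and its strongest member, site 3 (chr4:53118443-53121699, 3257 bp), had folds of 15.1 in replicate 1 and 6.69 in replicate 2 and a −log10 q of 55.4 and 9.62. The adjoining site 4 was high in replicate 1 (12.9, percentile 98.5 of its list) but low in replicate 2 (3.68, percentile 20.8). Intron 1 held another strong site, site 8 at +10.1 kb, again unequal between the libraries (12.4 and 4.76). At its neighbour, site 9, the order turned, with 4.71 in replicate 1 and 6.36 in replicate 2.

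At the start of Abca1, 3 regions lay side by side. Site 13, with its summit at −47 bp, had folds of 10.4 and 3.68, and site 12 at +238 bp had 2.56 and 5.61. At site 11 (+588 bp) the libraries were level, with 6.34 in replicate 1 and 6.36 in replicate 2. The only Abca1 region outside the body, site 14 at −67.9 kb, was weak in replicate 1 (2.50) and moderate in replicate 2 (5.02).

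Apoe, the secreted apolipoprotein that carries cholesterol away from macrophages, had no consensus region by any rule. The gene is short (chr7:19696109-19699188, minus strand, 3.08 kb), and replicate 1 had 2 peaks assigned to it while replicate 2 had 0. The peak closer to the start, chr7:19698581-19698727, had a fold of 4.31 and a −log10 q of 5.34, and its summit lay at −256 bp from the nearest of the 6 annotated TSSs. That TSS is internal, and the peak lay in the gene body, downstream of the outermost start. The other, chr7:19695794-19695895, lay past the 3′ end with a fold of 3.55. The nearest consensus region (chr7:19683589-19684241, folds 10.7 and 3.68) had Apoc4 as its nearest gene and its summit was 14275 bp downstream of the nearest Apoe TSS. Within 50 kb there were 3 more, near Clptm1 (11.4 and 8.37, and 6.34 and 5.69 in replicates 1 and 2) and Tomm40 (10.7 and 5.69).

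Soat1 encodes the enzyme that esterifies free cholesterol for storage in lipid droplets. It lies on chr1:156424525-156474331 (minus strand, 49.8 kb) and had 21 peaks in replicate 1 and 7 in replicate 2, and all 7 peaks of replicate 2 fell in its 5 consensus regions. Site 3 (chr1:156470156-156472399), in intron 1 at +2.65 kb, had folds of 17.5 and 11.05 and a −log10 q of 62.3 and 23.4. Its replicate 2 fold was the highest of the 66 regions and its replicate 1 fold came next after that of Abcg1 site 1.

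The other Soat1 regions were weaker and flanked this one. Site 4 (8.88 and 5.36), also in intron 1, reached to within 1 kb of the outer TSS, and site 5 at −311 bp covered that TSS (5.07 and 4.02). Site 2 lay in intron 1 at −2.04 kb from the inner TSS (7.61 and 4.69). Site 1 lay in intron 2 (7.10 and 5.02). All 5 were higher in replicate 1, and no consensus region lay beyond intron 2. Replicate 1 alone had peaks there, the strongest with a fold of 7.10 and a −log10 q of 14.6.

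Srebf2, which encodes SREBP-2, the activator of the cholesterol synthesis genes, had 2 regions, both at its start. Site 1 (chr15:82146589-82147280), with its summit at −91 bp, had folds of 10.1 and 4.35. Site 2 (chr15:82147930-82148531) in intron 1 at +841 bp had 4.57 and 5.69, so each library was higher at a different one. The summits of the libraries were over 200 bp apart at both, and neither was kept when summits within 100 bp were required. The gene for miR-33, which lies in an intron of Srebf2 and represses Abca1, had no peak within 1 kb, the nearest being 32518 bp away in replicate 1 and 45198 bp away in replicate 2.

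Srebf1, which encodes the SREBP-1 factors of fatty acid synthesis and is itself an LXR target, had a single region. It lay in intron 1 at +818 bp (chr11:60219749-60220049) with folds of 4.50 and 4.35, near the medians of the single lists (4.06 and 4.35). Its −log10 q was 6.55 in replicate 1 and 3.79 in replicate 2. Further peaks of 1 library each, 2 in each list and none shared, had folds of 2.79 and 3.30 in replicate 1 and of 4.35 and 5.18 in replicate 2. The region was lost under a −log10 q limit of 5 in both lists and when summits within 100 bp were required. With a window of 500 bp around the TSS it was still assigned to Srebf1 but no longer counted at the start.

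Insig1, the protein that holds the SREBP complex in the endoplasmic reticulum when sterol is plentiful, had 3 regions. Site 1 (chr5:28036947-28038106) lay far upstream at −33.5 kb and was stronger in replicate 2, with 7.66 in replicate 1 and 9.37 in replicate 2. Site 2 at −125 bp had 6.09 and 7.03, and site 3 in intron 1 at +537 bp had 11.4 and 4.02. The start of the lincRNA Gm26608, which runs the other way, lay within 1 kb of both start sites, so these peaks cannot be given to 1 of the 2 genes.

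Mylip, an E3 ubiquitin ligase that is induced by LXR and limits lipoprotein uptake, had 5 regions. Around its start, site 2 at +22 bp had 6.09 in replicate 1 and 6.69 in replicate 2, and site 3 at −375 bp from the inner TSS had 6.09 and 4.32. Site 4 (chr13:45390944-45392665) in intron 2 had 7.21 and 7.03. The libraries were close in fold at sites 2 and 4. Sites 1 and 5 lay at −134 kb and +51.8 kb with Mylip as the nearest start (4.34 and 5.36, and 7.61 and 4.35).

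**Figure D4:**
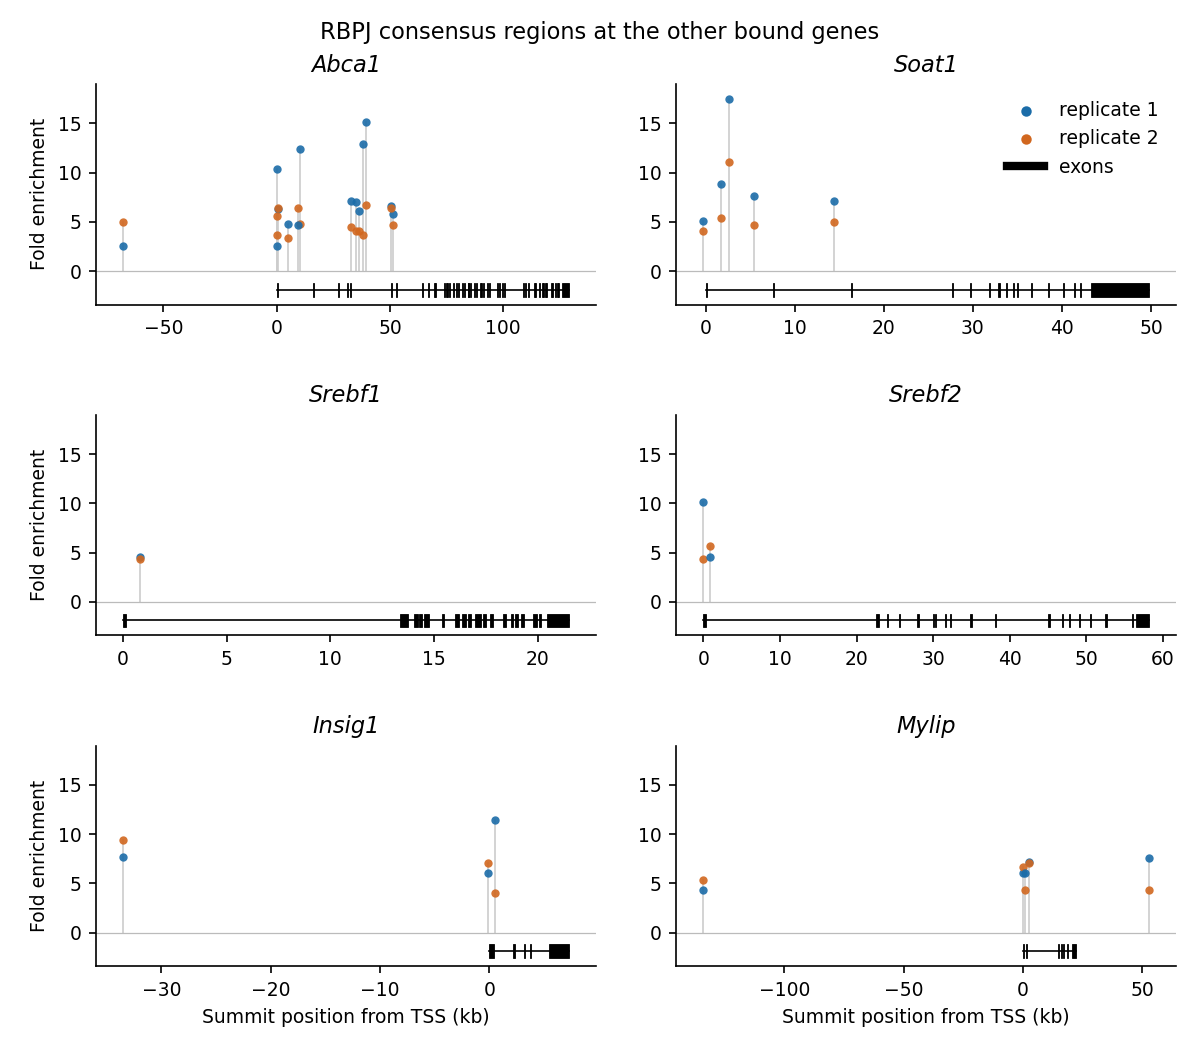
Fold enrichment (y axis, ratio over background) at the consensus regions of Abca1, Soat1, Srebf1, Srebf2, Insig1 and Mylip in replicate 1 (blue) and replicate 2 (orange), by summit distance from the start of the longest transcript (x axis, kb, positive downstream), with exons as black boxes. Regions gather at the start and in the first introns, with the highest replicate 1 points at Soat1 (17.5) and in intron 5 of Abca1 (15.1) and the highest replicate 2 points at Soat1 (11.05) and upstream of Insig1 (9.37).

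Other genes of the pathway were looked up by class. Of 47 such genes, 24 (51.1%) had a consensus region within 1 kb of a TSS, against the 33.7% of all genes. Among 20 cholesterol synthesis enzymes 11 had one. Among the strongest by the lower of the 2 folds were Mvk (mevalonate kinase, 11.6 in replicate 1 and 10.7 in replicate 2), Dhcr7 (the last reductase of the pathway, 7.61 and 10.4) and Mvd (8.88 and 6.02). Acat2, Sqle and Lss were among the 9 without one, though each had a peak of a single library there.

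The classes around synthesis differed in their counts. Of the SREBP processing genes 1 of 4 had a region within 1 kb of a TSS, namely Insig2 (3.81 and 5.36), and Scap, Mbtps1 and Mbtps2 had none. Of the lipoprotein uptake genes 2 of 6 (33.3%) had one, among them Lrp1 (5.58 and 4.05). Scarb1 and Vldlr were among those without, though Scarb1 had 3 regions by the other rules. Among lysosomal and ester-hydrolysing genes it was 4 of 5, with the acid lipase Lipa (9.64 and 6.36), the cholesterol carriers Npc2 (12.7 and 6.36) and Npc1 (5.33 and 8.03), and the ester hydrolase Nceh1 (6.85 and 5.69), and without Stard3.

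Among the LXR and oxysterol genes 5 of 6 (83.3%) had a region within 1 kb of a TSS, against 33.7% of all genes. The LXRβ gene Nr1h2 had folds of 9.39 and 7.36, Stard4 4.82 and 5.69, and Lpcat3 6.60 and 4.69, while Cyp27a1 had no region. The oxysterol-producing hydroxylase gene Ch25h had 5.33 and 5.36. Its stronger summit lay at +1380 bp, and no replicate 2 peak came within 1 kb of its TSS. Of the apolipoprotein neighbours and efflux partners only Abca7 (6.09 and 3.68) of 6 (16.7%) had one. Apoc1, Apoc2 and Apoc4, which lie beside Apoe, were without a region there, like Apoe itself. No class was tested against another.

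Motifs were counted on either strand up to 100 bp from the summit, and a match says only that the letters are there. The RBPJ core TGGGAA occurred at 11 of the 66 regions (16.7%), against 18.8% of all consensus regions, and its longer form GTGGGAA, which contains the core, at 3 (4.55% against 4.64%). The core matches were at Abcg1 (5), Abca1 (4), Soat1 (1) and Insig1 (1). The PU.1 form GAGGAAGT, which contains the ETS letters GGAAGT, was at 4 (6.06% against 6.53%). GGAAGT, with or without the longer form, was at 7 regions, 10.6% against 30.2%, the widest gap in share among the motifs near the summit.

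The remaining motifs were CEBP (TTGCNNAA) at 16.7% of the regions against 14.3% of all, AP-1 (TGANTCA) at 9.09% against 9.30%, and the E-box CACGTG at 9.09% against 4.88%. The sterol regulatory element, a sequence SREBP binds, was searched only as the letters TCACNCCAC, with no mismatch allowed. In this form it was at 0 of the 66 regions and at 0.794% of all near the summit. Any of the motifs was at 37 of the 66 regions, against 58.8% of all. Base composition was alike, with a median GC content of 48.3% against 46.8%, and 1 of the 66 windows (1.52%) was mostly repeat, against 6.22%.

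AGGTCA repeats were searched as copies in the same direction 1 base apart (DR1, the spacing of PPAR and RXR) or 4 bases apart (DR4, the spacing of LXR and RXR), with at most 1 mismatch in each copy. DR1 occurred near the summit of 4 regions (6.06% against 2.15% of all) and DR4 of 3 (4.55% against 1.23%), all 3 at Abcg1. Over whole regions, a count chosen after the data had been seen, DR4 gave 18 matches in 15 of the 66 regions (22.7% against 5.13%). Per 10 kb of region this was 2.35 against 0.685, and 2.42 within Abcg1, which held 12 of the 18. DR1 gave 2.22 against 1.06 per 10 kb, and the RBPJ core 10.2 against 10.4. GGAAGT was in 53.0% of whole regions against 54.6%, a small gap in share, but the 66 regions were wider. Per 10 kb GGAAGT stayed lower in the 66 regions, at 8.89 against 11.7. The sterol regulatory element was in 4 of the 66 whole regions (6.06% against 3.05%), 3 of them at Abcg1 and 1 at Soat1. The counts are small, the regions of 1 gene are neighbours, and no test was run.

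The DR4 matches near a summit of Abcg1, and those with a single mismatch in all, are shown to let the repeats be read. Capitals mark the repeat with its 4-base spacer.
Abcg1 site 1, chr17:31039744-31039759: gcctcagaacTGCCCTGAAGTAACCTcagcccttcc
Abcg1 site 4, chr17:31058881-31058896: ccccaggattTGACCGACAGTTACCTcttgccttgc
Abcg1 site 32, chr17:31112250-31112265: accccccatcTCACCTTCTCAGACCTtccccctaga
Abcg1 site 12, chr17:31075705-31075720: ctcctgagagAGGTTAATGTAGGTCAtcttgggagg
Insig1 site 1, chr5:28037135-28037150: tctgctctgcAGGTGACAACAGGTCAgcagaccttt
The first 3 are read on the minus strand and have 2 mismatches each. The last 2, in the wide intron 2 region of Abcg1 and the upstream region of Insig1, were the only matches with 1 mismatch among the 66 regions (0.262 per 10 kb against 0.0973 over all regions) and lay at +2000 bp and −688 bp from the stronger summit.

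**Figure D5:**
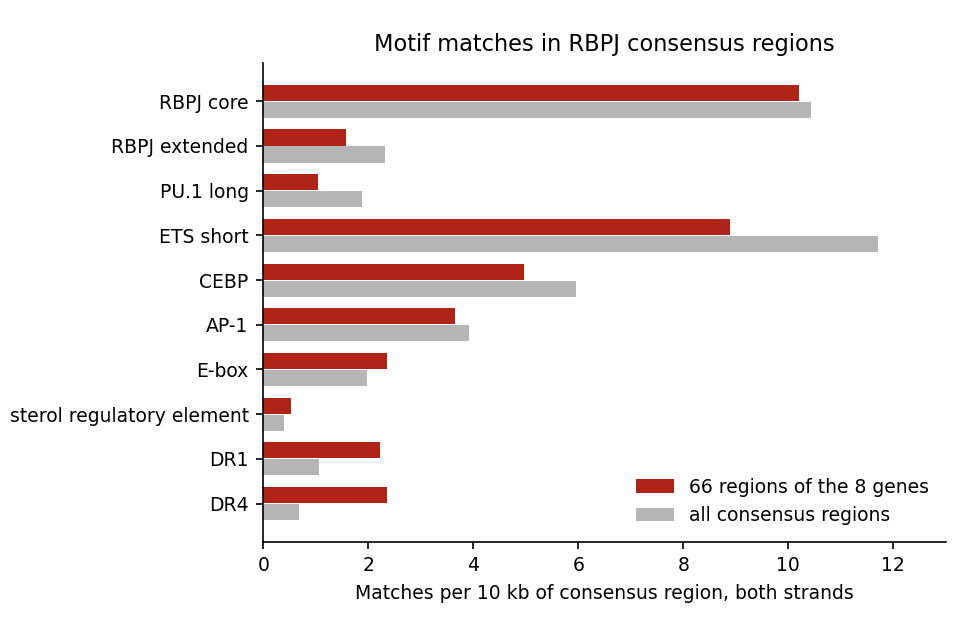
Motif matches per 10 kb of consensus region on both strands (x axis) for each motif (y axis), over the 66 regions of the 8 genes (red) and all 25454 consensus regions (grey). DR4 stands at 2.35 against 0.685 and DR1 at 2.22 against 1.06, while the RBPJ core is level at 10.2 against 10.4.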

How the data were processed

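RBPJ HT-ChIPmentation of sorted WT AMs gave 2 RBPJ and 2 Input libraries, grouped by the labels. Per the study's methods and the submitters' notes on processing, reads were handled with bcl2fastq (version 2.20.0.422), CASAVA, Cutadapt, Bowtie2 (mm10) and SAMtools, and the authors called peaks per RBPJ library with MACS3 against input at q 0.05. The deposited lists hold a display score, which was not used, the fold enrichment at each summit, and the −log10 p and −log10 q values. Peaks are kept or lost by the caller's threshold, so a longer list finds more regions. Fold is not normalised between libraries, so which library was higher at a region describes the lists only; it also chose the summit and the lower fold. Read numbers are not in the lists, and having 2 libraries limits the precision.

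Overlapping peaks (at least 1 bp) of both lists were merged into consensus regions. Gene models were the basic GENCODE M21 transcripts, and a TSS window was 1000 bp either side. The nearest TSS was measured from the middle of a region. Motifs were scanned up to 100 bp either side of the stronger library's summit. Coordinates are GRCm38, counted from 1. SciPy 1.17.1, pandas 2.3.3, numpy 2.4.6 and matplotlib 3.10.9 were run under Python 3.11.15, and the procedures were tested on simulated data with planted answers. With 1 condition, no test across genes or regions was run, and counts stand beside the same count over all genes or regions.

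The 8 genes and the other lists were chosen with earlier results of these data known. All 8 genes were named. Of each, the strongest region (by the lower fold) and every region within 1 kb of a TSS were described, and all of Abcg1 were mapped. Of each class of the wider list, up to 4 genes with the highest lower fold within 1 kb of a TSS and up to 3 without a region there, in list order, were named, except for some genes that are not reported here. Neighbouring genes were named where a start was shared or was the nearest to a region in a body. Other genes and sites were chosen after their values were seen. Results were recomputed under 34 other settings, and under 3 more added after the data had been seen.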

Additional observations from a re-analysis of the deposited data

How the results depend on the processing

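Of 37 alternative values, 25 stayed within 1.5 times the reported count. Of the 8 genes, 7 had a region within 1 kb of a TSS. This became 6 with both lists at a −log10 q of at least 5 (24.0% of all genes), where Srebf1 was lost. It was 5 with summits within 100 bp (22.6%), where Srebf1 and Srebf2 were lost, and 6 with a window of 500 bp (31.7%). Leaving out replicate 1 gave 7 (37.5% of all genes), and leaving out replicate 2 gave 8 (46.1%). Counts of regions moved more. The 66 regions became 32 with both lists at a −log10 q of at least 5 (all 25454 became 13045) and 34 with summits within 100 bp (all became 14400), and all peaks of a single library numbered 117 to 193, since no match in the other library was then asked for. For Abcg1 the 36 regions became 19 under either rule and 12 after joining those under 500 bp apart, with 70 to 82 peaks in a single library. For Abca1 the 14 regions became 4 at the stricter q. Of the 47 pathway genes, 24 had a region within 1 kb of a TSS, against 33.7% of all genes. With summits within 100 bp it was 14, against 22.6%. The 37 regions with a motif became 23 within 50 bp of the summit (37.9% of all regions) and 59 over whole regions (83.2% of all), a scan added after the data had been seen. Measuring the nearest TSS from the summit, also added, changed neither count. No paired analysis was possible because there was 1 condition and no test. The number of libraries and the unknown depth limit every value.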
